A study of Mus musculus with 60 samples.

Results

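The initial EU-seq experiment in RAD21-AID mouse embryonic stem cells (mESCs) holds 4 of the 60 libraries of the series: 2 from control cells and 2 from cells kept in 500 µM indole-3-acetic acid (IAA) for 4 h. It was taken as the IAA and control libraries of this line that are not part of the later set of 12 and 12. All 4 are E14 mESCs of the genotype GFP-AID-Rad21, in which an auxin-inducible degron is fused to the cohesin subunit RAD21, so that IAA triggers destruction of the protein. The line came from another laboratory. Control and treated cells alike grew in N2B27 medium with LIF, the MEK inhibitor PD0325901 and the GSK3 inhibitor CT-99021. Both groups received 0.5 mM 5-ethynyl uridine (5-EU) for 20 min, and the labelled, newly made RNA was sequenced. The treatment text attached to these libraries describes DMSO and triptolide, whereas their titles and treatment labels name IAA and control, and the latter were used. No library analysed here came from cells that had IAA without a degron allele, so an effect of IAA itself and one of RAD21 loss cannot be told apart. The comparison asks which genes change nascent transcription within hours of losing cohesin.

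Cohesin is a ring-shaped complex of SMC1A, SMC3, RAD21 and a STAG subunit that is loaded with the help of NIPBL and MAU2, extrudes chromatin loops until it meets CTCF, and is released by WAPL. In mESCs these loops bring enhancers near promoters, and the same ring holds sister chromatids together in mitosis. Naive mESCs rest on a transcription factor network that includes OCT4 (Pou5f1), SOX2, NANOG, ESRRB and the KLF factors.

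The gene with the steepest increase was Cyp1a1, the classical target of the aryl hydrocarbon receptor (AHR), a ligand-activated transcription factor that binds DNA with ARNT. Ahrr, which encodes the repressor of that receptor, rose as well, while Tiparp, a further target, fell. The 250 bases before their start sites (RefSeq, GRCm38.p6, which has the mm10 coordinates) are printed 5′ to 3′ on the strand of the gene, because each holds the AHR/ARNT core GCGTG or its reverse complement CACGC, set in capitals. They lie at chr9:57697363-57697612 on the plus strand for Cyp1a1, at chr13:74292332-74292581 on the minus strand for Ahrr and at chr3:65528197-65528446 on the plus strand for Tiparp.
Cyp1a1: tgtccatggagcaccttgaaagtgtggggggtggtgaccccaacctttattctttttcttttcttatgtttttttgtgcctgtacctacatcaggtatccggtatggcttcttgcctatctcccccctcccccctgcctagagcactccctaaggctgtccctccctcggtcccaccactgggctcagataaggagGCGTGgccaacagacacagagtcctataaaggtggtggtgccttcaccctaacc
Ahrr: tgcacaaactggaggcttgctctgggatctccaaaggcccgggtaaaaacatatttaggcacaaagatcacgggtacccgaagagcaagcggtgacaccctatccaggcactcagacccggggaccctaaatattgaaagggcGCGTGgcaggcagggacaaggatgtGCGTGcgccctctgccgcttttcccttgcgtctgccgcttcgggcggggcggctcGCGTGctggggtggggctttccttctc
Tiparp: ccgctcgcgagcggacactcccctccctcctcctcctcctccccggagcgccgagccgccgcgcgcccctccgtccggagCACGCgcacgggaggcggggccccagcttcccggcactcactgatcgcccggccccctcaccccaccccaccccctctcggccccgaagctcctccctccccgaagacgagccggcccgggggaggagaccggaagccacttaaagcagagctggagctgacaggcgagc
The match of Cyp1a1 begins 54 bases before the start site, those of Ahrr 107, 82 and 27 bases, and that of Tiparp 170 bases. A match is a description of the letters and not a shown binding site: 28.2% of 32851 RefSeq promoter windows of 250 bases hold GCGTG on either strand. Among the genes with the steepest changes described next, 4 of the 10 risen genes that had a window held it, against 1 of 9 fallen ones.

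The 2 control libraries held 9982425 and 12176991 counts and the 2 IAA libraries 10201150 and 10783742. Of 27665 counted transcripts, 15177 had a mean count above 20 in at least 1 group and were tested. CPM, the counts per 1000000 counts of a library, correlated on a log scale at 0.994 between controls and at 0.995 between IAA libraries. The chi-square statistic per degree of freedom of the counts was 3.26 between controls and 1.78 between IAA libraries, so neither pair differed by counting noise alone. The sources do not say that the replicates came from separate cultures, so p-values measure only the spread between these libraries. In such bulk samples, fewer cells of a type and less RNA per cell cannot be told apart. The degron acts on the protein, so Rad21 RNA does not check the labels. Summed over their markers, the pluripotent stem cell genes stood at 3350 and 3264 CPM in controls and at 2827 and 2848 CPM after IAA, and Pou5f1, Nanog, Sox2 and Esrrb were all transcribed. Neural progenitor, mesoderm and fibroblast feeder markers summed to between 12.4 and 46.8 CPM in every library. Primitive endoderm markers summed to 335 and 319 CPM in controls and 285 and 273 after IAA, and trophoblast markers to 116 and 114 against 92.2 and 92.6. No marker list held a gene at 0 in all 4 libraries, and the part of other cell types in the results was not tested.

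After IAA a minority of genes changed, mostly by less than 1.5-fold. At an adjusted p under 0.05 (edgeR quasi-likelihood test), 794 transcripts were lower after IAA, which is 5.23% of those tested, and 516 were higher, which is 3.4%. Of these 1310 calls, 8.63% of the tested transcripts, 1014 were below 1.5-fold and 70 at least 2-fold, and the median size of a called change was 0.40 on the log2 scale. The calls of at least 2-fold comprised 34 lower transcripts, 0.224% of those tested, and 36 higher, 0.237%. In all 70 the 2 control values did not overlap the 2 IAA values, a separation that 23.8% of all tested transcripts showed downwards and 24.3% upwards. Of the 34 lower, 15 passed the count filter through the control libraries alone, and of the 36 higher, 22 passed through the IAA libraries alone, so these had to differ. The 794 include 16 transcripts of the Pcdhg protocadherin cluster, whose gene bodies overlap and share reads. Among the 9861 transcripts above 15 transcripts per 1000000 (TPM), called expressed here, 574 were lower (5.82%) and 324 higher (3.29%), and 7 (0.071%) and 6 (0.0608%) of them by at least 2-fold. The number of calls depended on single libraries. It was lowest without IAA replicate 2, at 237 lower and 115 higher, was 276 and 153 without IAA replicate 1, and was highest without control replicate 1, at 1238 and 801.

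Cyp1a1, the enzyme through which AHR-active compounds are cleared, lies at chr9:57697613-57703824 (mm10, plus strand). It was counted at 3.01 and 2.03 CPM in controls and at 35.2 and 32.4 CPM after IAA. Both IAA libraries thus stood far above both controls, and the fold change was 13.6 (log2 3.76, SE 0.18, n = 2 per group, adjusted p = 1.78e-92 in edgeR). Ahrr gave 4.82 and 5.25 CPM in controls and 14.9 and 13.0 after IAA. Its groups did not overlap either (log2 1.47, SE 0.19, adjusted p = 2.70e-12). Nqo1, a quinone-detoxifying enzyme that AHR and NRF2 both activate, rose from 37.3 and 34.4 CPM to 49.0 and 46.5, a change of 0.42 on the log2 scale (adjusted p = 5.82e-04). Leaving out IAA replicate 1 took Nqo1 past the threshold, at an adjusted p of 0.0932, and did the same to Tiparp at 0.118.

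Other genes of the pathway moved the opposite way. Ahr itself was lower, at 51.1 and 50.5 CPM in controls against 29.4 and 29.7 after IAA (log2 -0.78, SE 0.10, adjusted p = 1.07e-12). Tiparp, an ADP-ribosyltransferase that restrains the receptor, was at 69.2 and 74.7 CPM against 52.6 and 57.2 (log2 -0.39, adjusted p = 1.33e-04). Neither gene's groups overlapped. Arnt, the partner of AHR, stood at 176 and 193 CPM in controls and 166 and 162 after IAA, with an adjusted p of 0.152. The conjugating enzymes Ugt1a6a and Ugt1a6b share nearly all of their counted sequence with the rest of the Ugt1a cluster and are uncertain. They were not called, with adjusted p of 0.790 and 0.359. Of the 8 tested genes of this list, which includes Ahr and Arnt, 3 were called higher (37.5%) and 2 lower (25%). Over all tested transcripts 3.4% were higher and 5.23% lower. The median log2 change of the list was 0.30 against 0.0078 over all tested transcripts.

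Around Cyp1a1, 4 of the 19 genes tested with a start within 500 kb were called, Cyp1a1 among them, where 8.63% of all tested transcripts were called. The window was centred on Cyp1a1 for its steep increase, so Cyp1a1 itself is in this count by construction. Edc3, a decapping factor whose start is 10.9 kb downstream, gave 97.3 and 104 CPM in controls and 111 and 109 after IAA, which did not pass the test (log2 0.13, adjusted p = 0.345). Cyp11a1, the cholesterol side-chain cleavage enzyme, 308.8 kb away, was at 3.01 and 3.72 CPM against 6.24 and 6.49 and rose by 0.91 on the log2 scale. Sema7a, a membrane-anchored semaphorin 242.5 kb away, fell from 27.9 and 26.3 CPM to 14.4 and 15.5, a log2 change of -0.85, and 1700017B05Rik fell by 0.33. The other 15 neighbours were not called.

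**Figure D1:**
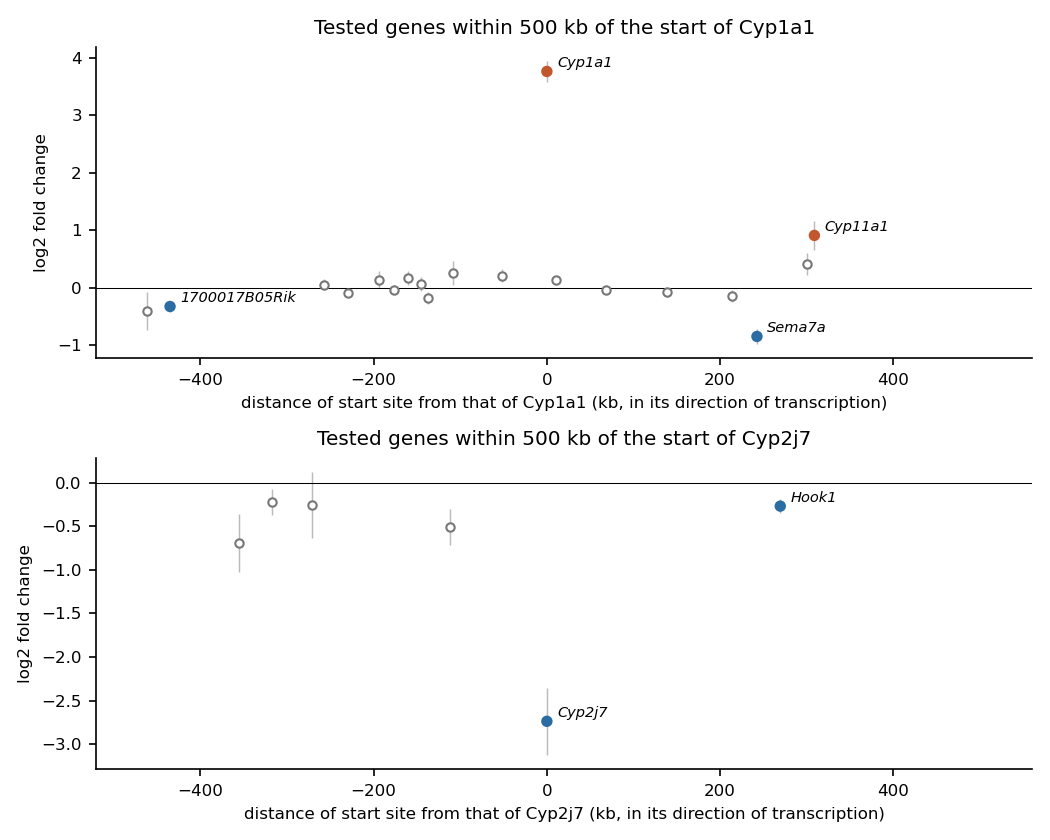
Log2 fold change (bars are SE) of each tested gene with a start within 500 kb of that of Cyp1a1 (top, 19 genes) and Cyp2j7 (bottom, 6 genes), against the distance in kb along the direction of transcription of the gene named. Filled points passed an adjusted p under 0.05: Cyp1a1 and Cyp11a1 higher and Sema7a and 1700017B05Rik lower in the top panel, Cyp2j7 and Hook1 lower in the bottom panel.

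Genes of other functions made up the rest of the steepest increases. Gm26812, a long non-coding RNA gene, gave 0.301 and 0.423 CPM in controls, from 3 and 5 counts, and 2.24 and 3.01 after IAA (log2 2.81, SE 0.49), and passed the count filter through the IAA libraries alone. It lies wholly within Gm20388 on the same strand, as do Dpep1 and Rpl13, and the sharing of reads among them is uncertain. Ptpru, a receptor tyrosine phosphatase, rose from 3.11 and 3.55 CPM to 12.2 and 13.7 (log2 1.95, SE 0.21, adjusted p = 1.19e-17). Both IAA values of Ptpru were over 3 times either control value. Myc, the growth-promoting transcription factor, gave 2.81 and 2.96 CPM in controls and 8.00 and 8.04 after IAA. The groups were far apart (log2 1.47, SE 0.24, adjusted p = 1.56e-07). Myc was the only member called of the 10 tested genes of its family (10% higher, against 3.4% of all transcripts). Mycn gave 46.9 and 42.3 CPM against 36.9 and 38.7 (adjusted p = 0.117). Cyp2u1, a fatty acid hydroxylase of the P450 family, rose from 2.01 and 2.45 CPM to 7.32 and 5.85 (log2 1.55), and Cntfr, the receptor subunit for ciliary neurotrophic factor, from 2.11 and 2.12 to 5.56 and 5.85 (log2 1.43). Tspan11, Dpep1, Cyp46a1 (the cholesterol 24-hydroxylase) and Hist1h2bj had 28 or fewer counts in each library and passed the filter through the IAA libraries alone, and each lost its call without control replicate 1 (adjusted p 0.0633, 0.105, 0.160 and 0.155) and without IAA replicate 2 (0.0599, 0.257, 0.0568 and 0.0993), as did Dpep1 without IAA replicate 1 (0.0697).

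Cyp1a1 and Myc were also expressed genes, as defined above. Further increases of expressed genes were smaller. Tmem220 went from 8.24 and 6.68 CPM to 15.6 and 17.9 (log2 1.18, SE 0.17) and Sox21, a neural-fate repressor of the SOX family, from 9.14 and 7.95 to 15.8 and 17.4 (log2 0.97, SE 0.16). In neither did the groups overlap. Ctxn1 and 1110019B22Rik rose by 1.01 and 1.26 on the log2 scale, and both lost the call without IAA replicate 1 (adjusted p 0.509 and 0.163). Ctxn1 also lost it without control replicate 1 (0.168) and IAA replicate 2 (0.0653), and 1110019B22Rik without control replicate 2 (0.102). Both had passed the count filter through the IAA libraries alone.

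The 6 tested primitive endoderm markers went both ways, with a median of -0.05. Of these, 1 was called lower (16.7%) and 2 higher (33.3%), against 5.23% and 3.4% of all transcripts. Pdgfra, a growth factor receptor below the TPM threshold, rose from 5.93 and 5.25 CPM to 12.1 and 11.5 (log2 1.09, SE 0.19), and the collagen chain Col4a1 rose by 0.48. The laminin chain Lama1 fell from 309 and 303 CPM to 249.04 and 233 (log2 -0.34). Lama1 lost its call without either IAA library (adjusted p 0.0659 and 0.347), and Col4a1 without either of them (0.145 and 0.487) or control replicate 2 (0.258). The groups of Pdgfra and Lama1 did not overlap, and the other 3 markers were not called.

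The steepest decrease was in Cyp2j7, an arachidonic acid epoxygenase of the P450 family at chr4:96195197-96236659 (minus strand). It was counted at 3.72 and 5.16 CPM in controls and 0.975 and 0.365 CPM after IAA, from 10 and 4 counts. The groups lay well apart (log2 -2.74, SE 0.39, adjusted p = 2.46e-10), but Cyp2j7 passed the count filter through the controls alone and so had to differ. The tested paralogs Cyp2j6, Cyp2j8, Cyp2j9 and Cyp2j11 in the same cluster were not called, with log2 changes from -0.69 to -0.23, and reads could be split among such near copies. Abca1, the transporter that exports cholesterol to apolipoproteins, fell from 79.1 and 81.5 CPM to 30.2 and 26.9, a 2.81-fold decrease (SE 0.09 on the log2 scale, adjusted p = 2.52e-55). With far higher counts than Cyp2j7, it gave the most certain large decrease. Cd200, an immune-inhibitory surface protein, fell from 8.13 and 7.87 CPM to 3.22 and 2.19 (log2 -1.56, SE 0.25), Adamts8, a secreted protease, from 10.6 and 11.2 to 3.12 and 4.93 (log2 -1.42, SE 0.21), and Fam19a4, a secreted neurokine, from 15.5 and 16.3 to 5.85 and 6.49 (log2 -1.36, SE 0.18). Col6a5, a collagen VI chain, fell by 1.69 on the log2 scale. Like Cyp2j7, Col6a5, AC102342.2 and Kcnc4 passed the filter through the controls alone. Rassf10, Shisal2b, Naip1 and the AP-1 factor Fosl2 also had means above 20 counts only in controls, and lost their calls without IAA replicate 2 (adjusted p 0.0530, 0.333, 0.183 and 0.0537), as did Kcnc4 (0.604, and 0.117 without control replicate 2). AC102342.2 lost its call without IAA replicate 1 (0.374) and overlaps the antisense gene AC102342.1 over 33.5% of its length.

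Expressed genes with large decreases included several with high counts. Tfrc, the transferrin receptor that imports iron, stood at 384 and 393 CPM in controls and 197 and 194 after IAA (log2 -0.98, SE 0.08, adjusted p = 1.19e-33). Plpp3, a lipid phosphate phosphatase, fell from 187.5 and 190.0 CPM to 90.2 and 84.2 (log2 -1.11, SE 0.08, adjusted p = 5.61e-44). In both genes the groups lay far apart. Tfap2c, a trophoblast and germ cell transcription factor, fell from 34.2 and 25.05 CPM to 13.1 and 14.1 (log2 -1.11, SE 0.13), and Car2, a carbonic anhydrase, from 18.6 and 16.8 to 8.19 and 8.59 (log2 -1.07, SE 0.16). Gm15138 and Ly6g6e fell by 1.30 and 1.00 on the log2 scale, but lost the call without control replicate 1 (adjusted p 0.0873 and 0.213), without IAA replicate 1 (0.210 and 0.0916) and without IAA replicate 2 (0.312 and 0.219). Gm46332 fell by 1.02 and lost its call without control replicate 2 and without either IAA library.

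**Figure D2:**
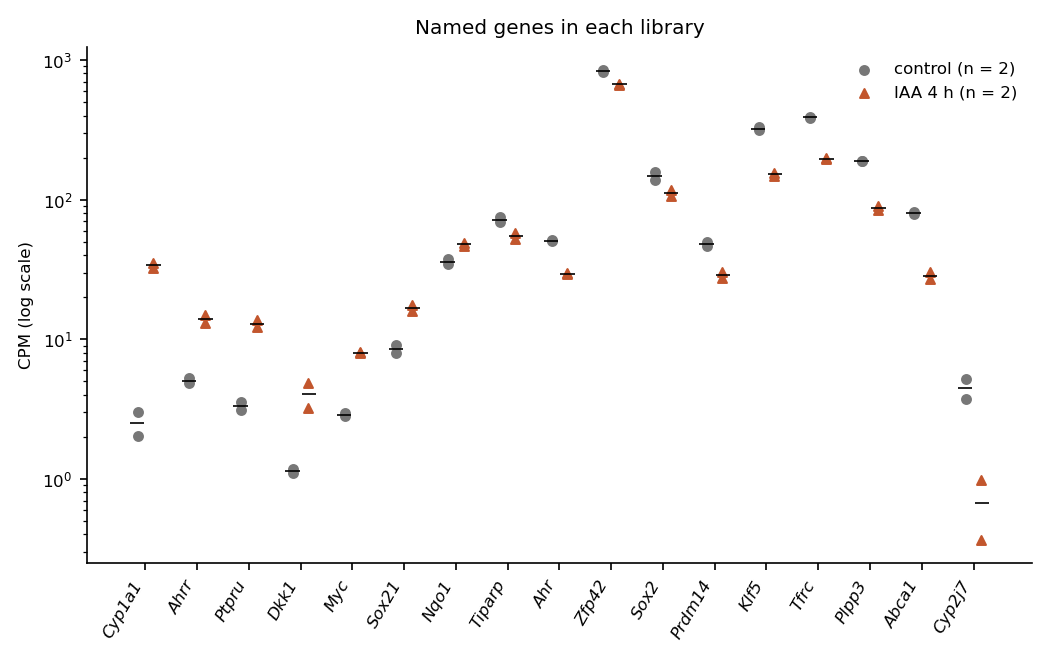
CPM of named genes in each library on a log axis, with 2 control libraries (grey circles), 2 IAA libraries (red triangles) and a bar at each group's mean. In each gene shown the symbols of the 2 groups do not overlap: Cyp1a1 lies at 2.03 to 3.01 CPM in controls and 32.4 to 35.2 CPM after IAA, and Klf5 at 315 to 329 and 149 to 156.

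Within the naive pluripotency network, some factors fell and others were not called. Klf5, a KLF factor that sustains naive self-renewal, lies at chr14:99298691-99315036 and gave 329 and 315 CPM in controls and 149 and 156 after IAA. Its groups were wide apart (log2 -1.07, SE 0.08, adjusted p = 1.01e-40). Klf4 fell from 101 and 83.1 CPM to 49.1 and 46.8 (log2 -0.94, SE 0.08, adjusted p = 1.29e-26) and Prdm14, which represses DNA methyltransferase genes, from 49.6 and 46.3 to 30.1 and 27.6 (log2 -0.73, SE 0.10). Neither gene's groups overlapped. Smaller decreases between 0.31 and 0.40 on the log2 scale passed the test in Sox2, the imprint guardian Zfp57, the DNA demethylase Tet2, Esrrb and Zfp42 (Rex1). Esrrb gave 969 and 999 CPM in controls against 756 and 754 after IAA. Nanog stood at 322 and 288 CPM against 292 and 298 (log2 -0.04, adjusted p = 0.805) and Pou5f1 at 88.0 and 68.5 against 64.6 and 71.1 (log2 -0.20, adjusted p = 0.107), and in both the groups overlapped. Gbx2, a homeobox factor, was the only member called higher, at 27.8 and 23.3 against 33.9 and 36.5 CPM, and lost that call without IAA replicate 2 (adjusted p = 0.138) or control replicate 2 (0.0621).

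In all, 8 of the 21 tested naive pluripotency genes were lower and 1 higher, against 5.23% and 3.4% of all tested transcripts, with a median of -0.14 against 0.0078. The 8 became 4 without IAA replicate 1 and 5 without IAA replicate 2. Without replicate 1, Sox2 and Zfp57 stood at an adjusted p of 0.102 and 0.120. Without replicate 2, Tet2 stood at 0.146, and Esrrb and Zfp42 lost their calls without either IAA library (0.191 and 0.347 for Esrrb, 0.314 and 0.522 for Zfp42). Among 12 tested genes of formative and primed pluripotency, 3 were lower (25%, against 5.23% of all transcripts) and none higher. The de novo methyltransferase Dnmt3b fell from 83.6 and 75.9 CPM to 57.7 and 57.4 (log2 -0.47, adjusted p = 9.41e-07). Zic2 and Zic5, neighbouring zinc-finger factors, fell by 0.39 and 0.38, and each lost its call without either IAA library, Zic5 also without control replicate 1 (adjusted p 0.0615).

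Feedback genes of the ERK pathway, which FGF drives in these cells and PD0325901 blocks, were lower in 4 of 13 tested cases, against 5.23% of all transcripts, with none higher and a median of -0.33. Spry2 and Spred1, both membrane-anchored inhibitors of the pathway, fell by 0.40 and 0.39 on the log2 scale, and Etv1, an ETS factor, by 0.40. Spry4, a further sprouty inhibitor, was scarcely transcribed, at 3.62 and 3.64 CPM in controls and 1.56 and 2.10 after IAA (log2 -0.97, SE 0.32, adjusted p = 0.0331). Its groups did not overlap, yet it passed the filter through the controls alone, and leaving out any of the 4 libraries ended the call (adjusted p 0.0569 to 0.398). The count of lower genes was 1 without either IAA library, 2 without control replicate 2 and 2 in DESeq2. The phosphatase Dusp6 gave 3.92 and 3.22 CPM against 2.54 and 2.10 (log2 -0.61, adjusted p = 0.233), and Etv4 and Etv5 were not called. Of 18 immediate early genes, Fosl2 alone was called, downwards (5.56%, against 5.23% of all transcripts).

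In the other signalling lists few members passed the test. Wnt response genes had 4 of 17 higher, against 3.4% of all transcripts, and none lower, with a median of 0.08. Dkk1, a secreted Wnt antagonist that Wnt signalling itself induces, rose from 1.10 and 1.18 CPM to 3.22 and 4.84 (log2 1.81, SE 0.35, adjusted p = 1.31e-05), with 11 and 14 counts in controls, so that it passed the filter through the IAA libraries alone. The LEF/TCF factors Lef1 and Tcf7l1 rose by 0.37 and 0.33 on the log2 scale and the target Sp5 by 0.30, whereas the feedback gene Axin2 gave 296 and 292 CPM against 305 and 315 (adjusted p = 0.647). The count of higher genes was 1 without either IAA library and 1 in DESeq2, and Dkk1 reached an adjusted p of 0.0680 without replicate 2. Of 21 TGF-beta, activin and BMP genes, 3 were called lower (14.3%) and 1 higher (4.76%), against 5.23% and 3.4% of all transcripts. Their median log2 change was -0.02. The ligand Bmp4 (12.3 and 13.3 against 7.32 and 8.59 CPM, log2 -0.68), the inhibitor Smad7 (log2 -0.42) and the receptor Acvr1b (log2 -0.38) fell. These 3 lost their calls without IAA replicate 1, at adjusted p of 0.165, 0.0899 and 0.0812. Inhbb, the inhibin beta B chain, was below the filter with 14, 8, 2 and 7 counts.

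Eph receptors and their ephrin ligands guide cell contacts. Epha4, among the most transcribed, fell from 701 and 740 CPM to 425 and 400 (log2 -0.80, SE 0.08, adjusted p = 1.74e-20), and Epha2 from 175 and 161 to 105 and 102 (log2 -0.69, SE 0.08, adjusted p = 2.10e-17). The groups of both lay far apart. The ligand Efnb3 fell by 0.70 at an adjusted p of 0.0454, a call lost without control replicate 1 (0.228) or either IAA library (0.0732 and 0.656), and Efnb2 rose by 0.53, lost without IAA replicate 2 (0.0555). The remaining 14 of 18 were not called, so 16.7% were lower and 5.56% higher, against 5.23% and 3.4% of all transcripts. Of 20 p53 targets, the cell cycle inhibitor Cdkn1a fell from 276 and 240 CPM to 190 and 188 (log2 -0.44, adjusted p = 4.22e-07), Trp53inp1 fell by 0.25 and Plk2 rose by 0.41. That is 10% lower and 5% higher, against 5.23% and 3.4% of all transcripts. Trp53inp1 lost its call without either IAA library and Plk2 without replicate 2. Kdr, a VEGF receptor and the only mesoderm marker called, fell from 2.01 and 2.28 CPM to 0.878 and 0.822 (log2 -1.33, adjusted p = 0.0263). It passed the filter through the controls alone, the other 3 tested mesoderm markers lay above 0, and the call was lost without IAA replicate 1 (0.225) or 2 (0.336). Of 17 tested P450 genes outside the Cyp1 group, Cyp2j7 and Cyp2b23 were lower and Cyp2u1 and Cyp46a1 higher. Each pair is 11.8% of the list, against 5.23% lower and 3.4% higher of all transcripts. Cyp2b23 (log2 -0.53) was not called in DESeq2 (adjusted p = 0.0965, Wald test). None of 14 integrated stress response genes and none of 12 heat shock genes passed in edgeR, with medians of 0.01 and 0.03; without control replicate 1, 2 of each were higher.

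Genes of cohesin and CTCF themselves did not pass the test. Rad21 gave 230 and 236 CPM in controls and 237 and 246 after IAA (log2 0.05, SE 0.08, adjusted p = 0.783). Ctcf gave 225.9 and 236 against 243 and 239 (log2 0.06, SE 0.08) and the loader Nipbl 291 and 317 against 301 and 288 (log2 -0.04, SE 0.08). The release factor Wapl was at 349 and 390 CPM against 335 and 334 (log2 -0.14, adjusted p = 0.283). Of 22 tested members none was called, where 8.63% of all tested transcripts were called in either direction. The changes ran from -0.19 for the meiotic subunit Rec8 to 0.77 for Ctcfl, the germ-line paralog of CTCF (adjusted p = 0.0855), with a median of 0.04. Leaving out control replicate 1 gave 1 lower and 1 higher call in this list, and leaving out control replicate 2 gave 2 higher.

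In the mitosis and ribosomal protein lists every tested member lay above 0, as did 52.0% of all tested transcripts, and a minority passed the test. All 25 tested mitosis genes had log2 changes above 0, from 0.06 to 0.35 with a median of 0.22, and 10 of them were called higher, a share of 40% against 3.4% of all transcripts. They included the mitotic kinases Plk1 (60.5 and 55.3 CPM against 69.3 and 74.5, log2 0.32), Aurka and Aurkb, cyclin B1 (Ccnb1), its partner Cdk1, the topoisomerase Top2a and the kinetochore proteins Cenpe and Cenpf. The count was 15 without control replicate 1, 0 without IAA replicate 1 or without IAA replicate 2, and 3 in DESeq2. In the additional experiment 19 of the 25 were called higher, with a median of 0.12, where 31% of all tested transcripts were called higher. The list of cytosolic ribosomal protein genes is not complete and lacks, for example, Rpl19 and Rps27a. All 36 genes in it were also above 0, with a median of 0.15, and 9 (25%, against 3.4% of all transcripts) were called higher. These ran from Rpl15 (0.24) to Rps23 (36.8 and 31.3 CPM against 44.5 and 44.9, log2 0.40). The 9 became 26 without control replicate 1, 1 without control replicate 2, 3 without IAA replicate 1, 0 without IAA replicate 2 and 1 in DESeq2. In the additional experiment the median of this list was 0.0072, with 4 lower and 2 higher. Of all transcripts tested there, 27.4% were lower and 31% higher.

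**Figure D3:**
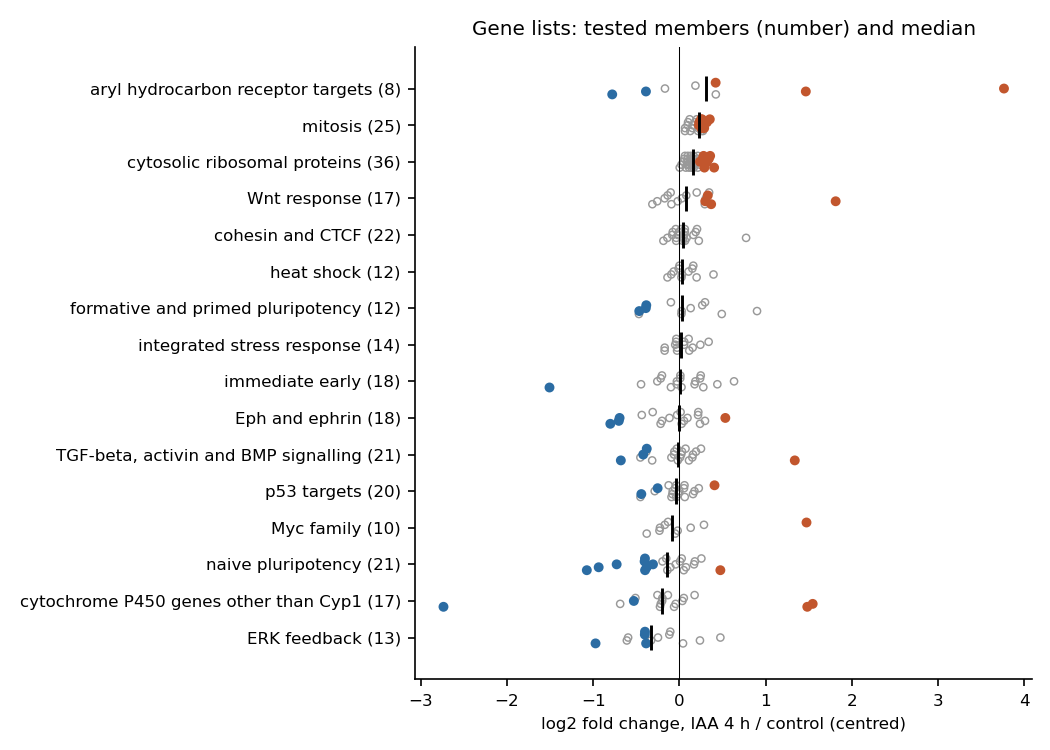
Log2 fold change of every tested member of 16 gene lists (number of tested members in brackets), with a vertical bar at each median, blue and red points for members lower or higher at an adjusted p under 0.05 and open circles for members not called. The medians run from -0.33 for ERK feedback to 0.30 for the AHR list, and the mitosis and ribosomal lists lie wholly to the right of 0.

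Changes also varied with the length and level of genes. Among the 1594 tested genes under 5 kb the median log2 change was 0.14, with 19 called lower (1.19%) and 103 higher (6.46%). Among the 1336 of 100 to 200 kb it was -0.04, with 164 lower (12.3%) and 44 higher (3.29%). The 852 genes over 200 kb had a median of 0.01, with 65 lower (7.63%) and 48 higher (5.63%). Over all tested transcripts 5.23% were lower and 3.4% higher. The 1155 genes above 200 CPM in controls had a median of -0.07, with 164 lower (14.2%) and 23 higher (1.99%). The 2595 below 5 CPM had a median of 0.15, with 25 lower (0.963%) and 73 higher (2.81%). The control level is itself part of the change, and the lowest class holds transcripts that passed the count filter through the IAA libraries alone. Sorting by control level thus favours such a tilt, by an amount that was not tested. In the additional experiment the medians of the same groups, in the order given, were 0.06, 0.01, 0.09, -0.04 and 0.15.

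The additional experiment gave the same treatment, dose and time in the same line and medium, with 12 control and 12 IAA libraries made with a different version of the library kit. It did not enter the calls above and so tests them in other samples. There, 4304 transcripts were lower (27.4%) and 4871 higher (31%). Of the 794 lower calls of the initial experiment, 787 were tested there, 746 had the same direction and 701 were called lower. Of the 516 higher calls, 510 were tested, 472 had the same direction and 405 were called higher. All 27 tested of the 34 2-fold decreases and all 30 tested of the 36 2-fold increases kept their direction. Among transcripts that the initial experiment did not call, 59.9% of those below 0 and 72.7% of those above 0 had the same direction. The median change of the lower calls was -0.38 in the initial and -0.31 in the additional experiment, and that of the higher calls 0.43 and 0.26.

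Individual genes can be read in those 24 libraries. Abca1 ranged from 45.0 to 59.4 CPM (median 52.4) in controls and from 19.8 to 27.0 (median 21.9) after IAA, with a log2 change of -1.21. Tfrc ranged from 353 to 381 CPM (median 369) and from 175 to 194 (median 187), with a change of -0.99 against -0.98 in the initial experiment. Ptpru ranged from 1.64 to 3.59 CPM (median 2.45) and from 7.69 to 10.7 (median 9.02), with a change of 1.84. In all 3 genes, which were named for large initial changes, no library of the 1 group overlapped the other. The share of all transcripts that separated in this way there was not counted. Klf5, Klf4, Prdm14, Epha4, Epha2, Tfap2c, Car2 and Dkk1 also passed the test there in the same direction. Efnb3 and Cyp2b23, called lower in the initial experiment, were called higher there (log2 0.22 and 0.29). Naip1 and Ly6g6e, 2 of the large decreases, were not called there (adjusted p 0.542 and 0.205), nor was Hist1h2bj among the increases (0.428).

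The responses of both experiments were then compared directly, as an interaction in a joint model. Of 16000 transcripts, 443 (2.77%) had a more negative and 444 (2.78%) a more positive response in the initial experiment at an adjusted p under 0.05. The counts fell to 162 and 164 without IAA replicate 2, to 214 and 248 without control replicate 2, and the higher count to 282 without IAA replicate 1. In the AHR list 3 of 8 genes differed, Cyp1a1, Ahrr and Tiparp. On a common scale Cyp1a1 stood at 2.62 CPM in initial and 30.1 CPM in additional controls, and at 35.2 and 54.6 CPM after IAA. The IAA levels were thus closer than the control levels, and the log2 changes of 3.76 and 0.87 differed by 2.89 (SE 0.24, adjusted p = 4.33e-13). Ahrr, at 5.22 and 13.6 CPM in controls and 14.5 and 18.4 after IAA, showed the same order (difference 1.01, adjusted p = 4.09e-05). Myc did too, at 3.00 and 11.6 CPM in controls and 8.34 and 14.5 after IAA (difference 1.11, adjusted p = 3.98e-04).

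Some genes that fell in the additional experiment were also lower in the initial than in the additional controls. Spry4 stood at 3.77 CPM in initial and 49.4 CPM in additional controls, and at 1.90 and 2.55 CPM after IAA. Its IAA levels were alike while its control levels were far apart, and its changes of -0.97 and -4.25 differed by 3.27 (SE 0.35, adjusted p = 1.05e-09). Enox1, an NADH oxidase gene, was at 8.81 and 130 CPM in controls and at 8.12 and 23.8 after IAA, and was not called in the initial experiment (log2 -0.13, adjusted p = 0.770). Tiparp, at 74.7 and 126 CPM in controls and 57.1 and 51.2 after IAA, fell in both, by 0.39 and 1.29 on the log2 scale. Kdr was at 2.23 and 8.52 CPM in controls, and its responses of -1.33 and -2.50 were not called different (adjusted p = 0.0860). The experiments also differed in the version of the library kit, and kit and experiment cannot be told apart.

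**Figure D4:**
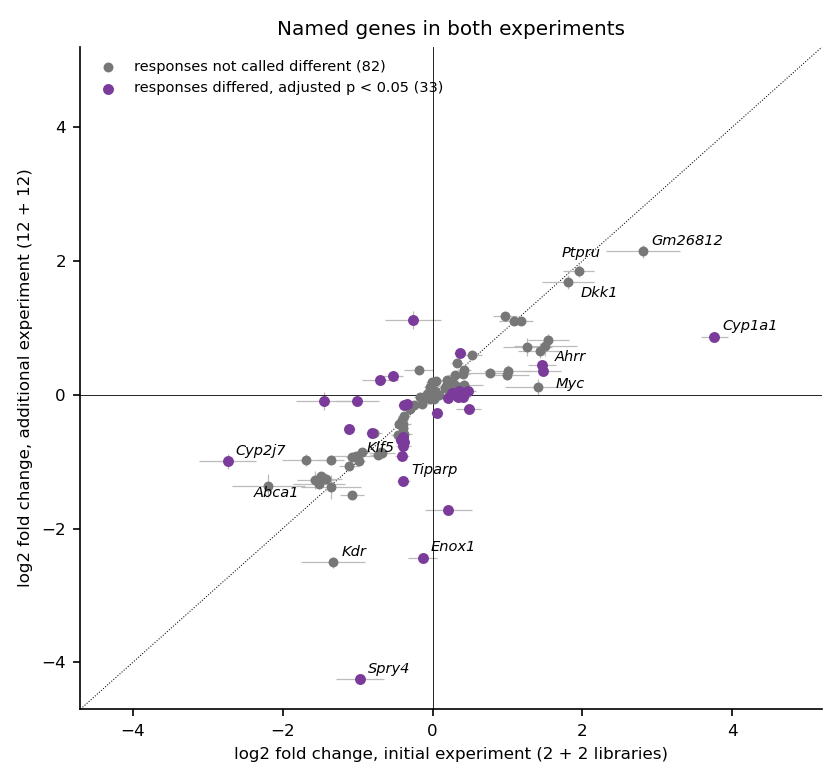
Log2 fold change (bars are SE) of the named genes tested in both experiments, with the initial experiment (2 and 2 libraries) on the x axis and the additional one (12 and 12) on the y axis. The dotted line marks equality, and purple points had responses that differed in the interaction test, among them Cyp1a1 at 3.76 and 0.87, Spry4 at -0.97 and -4.25 and Enox1 at -0.13 and -2.43.

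Depletion of CTCF by 6 h of 500 µM IAA in mESCs of the genotype GFP-AID-Ctcf gives values to set beside these, at a different time and with 4 libraries per group. There 314 transcripts were lower (2.01%) and 245 higher (1.57%). These counts depended on the model: a block by replicate gave 2386 and 2168, and the stranded libraries alone 0 and 0. Cyp1a1 changed by 1.579 on the log2 scale and did not pass the test (adjusted p = 0.0732), and Ahrr gave 0.59 (adjusted p = 0.221). Klf5 averaged 395 CPM in controls and 390.0 CPM after IAA (adjusted p = 0.968), and Ptpru gave -0.16 (adjusted p = 0.908). Among the named genes called in the initial experiment, Tfrc (-0.33), Spred1 (-0.34), Abca1 (-0.37), Bmp4 (-0.67), Epha2 (-0.82), Car2 (-1.53), Spry4 (-2.79), Tmem220 (0.92) and Dkk1 (4.21) were called here in the same direction, and Tfap2c (0.55), Rassf10 (1.78) and Gm26812 (-2.02) in the opposite one. These differences in response between the lines were not tested.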

How the data were processed

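EU-seq, the sequencing of RNA labelled by a short 5-EU pulse, was used in all libraries. The deposited values are whole-number counts. The authors obtained them by adapter trimming (Cutadapt), alignment to the mm10 genome (bwa meme), filters on mapping quality (samtools) and on ribosomal and transfer RNA loci (Bedtools), and counting in HTSeq of reads anywhere between the ends of 1 representative GENCODE M25 transcript for each gene, introns included. Whether gene counting used strand is not given in the sources used here, so genes overlapping on opposite strands are uncertain. The initial libraries were made with a kit that keeps no strand.

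Gene names came from GENCODE M21 (27455 of 27665 transcripts matched); the others kept their identifiers. Transcripts with a mean count above 20 in either group were tested in R 4.3.3 with edgeR 4.0.16 (TMM, two-sided quasi-likelihood F test, no covariates; for CTCF-AID, library type) and Benjamini-Hochberg adjustment. Log2 fold changes had the median over transcripts above 15 TPM subtracted, where TPM used the length of the gene body. The response of both RAD21-AID experiments was compared by an interaction term over all 28 libraries. CPM on the common scale also use TMM factors. A gene with several transcripts is given by its most counted one. On counts simulated for the 15177 transcripts of the initial comparison, the test called 73.1% of 1.5-fold, 94.0% of 2-fold and 100% of 4-fold changes, with 6 false among 184 calls. The simulated libraries were independent and had the spread that edgeR itself had fitted. These figures therefore describe the test under its own model and not its error rate in the real libraries. Precision is set by 2 libraries per group of 9982425 to 12176991 counts. DESeq2 1.42.0, other filters and scaling, a replicate block and leaving out each library were tried as alternatives.

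The genes, lists and tests were chosen with earlier results of these data known. Genes were named if they were among the 12 largest decreases or increases of at least 2-fold with no overlap between groups, among the 8 largest decreases or increases of expressed genes, called members of the lists, members of the AHR and cohesin lists, Spry4, Inhbb, Kdr or Ptpru, or among the 5 largest interaction differences each way. Genes near Cyp1a1 and Cyp2j7, members of lists that were not called, and the lists of hypoxia, interferon, histone and mitochondrial genes were chosen after their values were seen. Spry3, Cyp1b1 and a few further listed genes were not analysed here. The result of 1 listed gene is not reported here.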

Additional observations from a re-analysis of the deposited data

Results flagged for a closer look

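In 36 of the genes named here the responses of the initial and the additional experiment differed (log2 change of the initial minus that of the additional, interaction test in edgeR, adjusted p under 0.05 among 16000 transcripts). Of all 16000, 2.77% had a more negative and 2.78% a more positive response in the initial experiment. Some of the 36 were named because they passed this test, and others for their large initial changes. The count is thus no estimate of how often responses differ. The response was more positive in the initial experiment for Spry4 by 3.27, Cyp1a1 by 2.89, Enox1 by 2.29, the gene AC133601.1 by 1.92, the SOX factor Sox3 by 1.84, Myc by 1.11, Ahrr by 1.01 and Tiparp by 0.89. Smaller differences of this sign were found for the basement membrane collagen Col4a1 (0.69), Gbx2 (0.41), Zic2 (0.36), Tet2 (0.22), Smad7 (0.24) and Cdk1 (0.22), for the ERK feedback genes Etv1 (0.51) and Spred1 (0.31), and for the ribosomal protein genes Rps23 (0.43), Rps12 (0.37), Rpl10a (0.32), Rpl18 (0.29) and Rps2 (0.28). The cohesin-related genes Stag3 (0.32), a meiotic subunit, and Cdca5 (0.25), which encodes sororin, also differed but were not called in the initial experiment.

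The response was more negative in the initial experiment for Cyp2j7 (-1.76), Mab21l2 (-1.43), E330012B07Rik (-1.41), Gm16223 (-1.38), Naip1 (-1.37), Efnb3 (-0.93), Ly6g6e (-0.92), Cyp2b23 (-0.83) and Plpp3 (-0.61). It was slightly more negative for the Wnt factor Lef1 (-0.26), Epha4 (-0.24), Acvr1b (-0.23) and the laminin chain Lama1 (-0.22). Mab21l2 lies wholly within Lrba on the opposite strand, so its counts are uncertain. AC133601.1 lies beside Spry4, and stood at 2.65 CPM in initial and 18.2 CPM in additional controls on the common scale. What sets the experiments apart for these genes was not tested.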

How the results depend on the processing

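No called named gene reversed the direction of its initial change under any of the 12 alternatives that gave it an adjusted p. DESeq2 with its Wald test called 404 lower and 128 higher transcripts, 14 and 6 of them by at least 2-fold, and 324 and 84 among expressed ones, with 1637 at an unadjusted p under 0.05 against 3140 in edgeR. It gave no adjusted p for 3237 transcripts, 28 called named genes among them. The samples share only a replicate number, and with it as a block 525 were lower and 337 higher, and 350 and 187 among expressed transcripts. Same-numbered libraries deviated with a correlation of -0.13, so the crossed pairing was added after seeing the data; it gave 1136 lower and 739 higher, and 866 and 478 among expressed ones. Without a TPM threshold 516 expressed transcripts were higher. Leaving out 1 library gave 237 to 1238 lower and 115 to 801 higher calls, 25 to 42 and 20 to 67 of at least 2-fold, and 163 to 970 and 61 to 603 among expressed transcripts; for the interaction it gave 162 to 445 and 164 to 434. DESeq2 size factors, other count filters, no centring and robust fitting moved none of the counts of the initial comparison by over 1.5 times.

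Of 93 called named genes, 28 kept their call in all of the 12 alternatives that gave them an adjusted p. Among them were Cyp1a1, Ahrr, Ptpru, Myc, Klf5, Klf4, Prdm14, Tfrc, Abca1 and Cyp2j7. DESeq2 gave no adjusted p to transcripts with a mean under 70.75 counts, so it did not judge Myc or Cyp2j7. Cyp2j7 had also passed the count filter through the controls alone. In CTCF-AID cells a block by replicate gave 2386 lower and 2168 higher, unstranded libraries alone 517 and 629, and stranded libraries alone 0 and 0 in edgeR (555 at an unadjusted p under 0.05, and 113 in DESeq2 after adjustment). For each of these changes in counts the cause was not tested. Genes of a few CPM, such as Kdr and Spry4, are limited by the counts of 2 libraries.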

Other observations

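The following 4 gene groups were examined after their values had been seen and are given as counts without a test of the group. All 7 mitochondrially encoded genes that passed the filter were called higher after IAA, against 3.4% of all tested transcripts. The NADH dehydrogenase gene mt-Nd2 gave 1001 and 945 CPM in controls against 1344 and 1393 CPM after IAA (log2 0.50), and mt-Nd6, which lies on the opposite strand of the mitochondrial genome, 902 and 916 against 1246 and 1235 (log2 0.45). The 7 changes ran from 0.26 to 0.50. All 7 were also called higher in the additional experiment, with a median of 0.23, where 31% of all tested transcripts were called higher. With the replicate number as a block, 0 of the 7 were called in the initial experiment, and DESeq2 called 6. In the initial experiment the count was 1 without IAA replicate 1 and 0 without IAA replicate 2. Of the other mitochondrial genes in the table, mt-Atp6, mt-Atp8, mt-Co2 and mt-Co3 were listed at 0 in all 4 libraries.

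Of 51 tested clustered histone genes, all had log2 changes above 0, with a median of 0.52, and 17 were called higher, where 52.0% of all tested transcripts lay above 0 and 3.4% were called higher. Hist1h1a, a linker histone, gave 62.1 and 48.5 CPM in controls and 76.9 and 93.1 after IAA (log2 0.63). The 17 became 6 without IAA replicate 2, 10 without IAA replicate 1 and 6 in DESeq2. Of 25 hypoxia response genes, 8 were lower and 1 higher, against 5.23% and 3.4% of all transcripts. The glucose transporters Slc2a1 (141 and 130 CPM against 89.5 and 89.99) and Slc2a3 (369 and 346 against 239 and 233) fell by 0.59 and 0.60 on the log2 scale, and the 8 became 4 without IAA replicate 1, 5 without IAA replicate 2 and 4 in DESeq2. The count of higher genes became 4 without control replicate 1. Of 14 interferon response genes 5 were lower, against 5.23% of all transcripts, among them Pml, the scaffold of nuclear bodies (135 and 140 CPM against 85.6 and 82.0, log2 -0.71). The 5 became 2 without either IAA library and 1 in DESeq2. The starts of Gbp8 and Gbp9, which are among the 5, lie 1 base apart and their reads are not independent.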
